A study of Rattus norvegicus with 6 samples.

Results

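Mitochondrial ribosomal protein genes encode the protein subunits of the ribosome that works inside mitochondria. They were taken as every gene of the count tables whose symbol starts with Mrpl or Mrps followed by a number. The rule uses names only and no measured value. It found 69 of the 17327 genes, 43 of the large (39S type) subunit, 25 of the small (28S type) subunit and Mrps36, which carries the family name but is now known as Kgd4, a subunit of the 2-oxoglutarate dehydrogenase complex. Mrps30 and Mrps18a are named after the small subunit but sit in the large subunit, and were counted there. After the filter on low counts 66 of the 69 were tested, among 9740 genes in all. Mrpl1, Mrpl30 and Mrpl36 were not tested.

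RNA-seq was performed on primary Schwann cells, the glia that ensheath peripheral axons, purified from the sciatic nerves of adult female Wistar rats. In the mock group, confluent cells were starved for 18 h in medium with 2% FBS and 10 µM forskolin, an agent that raises cAMP, and then received for 6 h the buffer in which the ligand is dissolved (PBS with bovine serum albumin). In the NRG1 group, cells from the same preparation were starved in the same way and received 10 nM recombinant soluble NRG1β1, a growth factor acting through ErbB receptors, for 6 h. Each of the 3 independent preparations gave 1 mock and 1 NRG1 sample with the same replicate number, and the comparison asks which genes soluble NRG1 regulates at this time. Both groups therefore had forskolin throughout and, before starvation, a growth medium that already held a neuregulin. The labels give this as 63 ng/mL glial growth factor, while the methods of the paper give recombinant soluble NRG1β1. By either source the mock cells were withdrawn from a neuregulin rather than never exposed to it.

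Mammalian mitochondria keep a small genome that codes for core subunits of the respiratory chain, and a dedicated ribosome translates it. All proteins of that ribosome are encoded in the nucleus, made in the cytosol and imported, and are joined there to the ribosomal RNAs that the mitochondrion makes itself. Some of these proteins descend from bacterial ribosomal proteins, others were added during the evolution of mitochondria. Schwann cells depend on mitochondria for energy and lipid metabolism, and loss of mitochondrial function in these cells leads to neuropathy.

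Sequences are shown for 5 members that rose after NRG1 and share a word of letters just after their transcription starts, which is counted over the family further on. They are stretches of 30 bases around the word AAGATGGC, the core of the binding sequence of the transcription factor YY1, which stands in capitals. They are given 5′ to 3′ on the strand of the gene, from RefSeq promoters of the rat assembly GRCr8.
Mrps18b, chr20:2843023-2843052, plus strand: ggatgtgcgacAAGATGGCtgcctccttgc
Mrps27, chr2:32474222-32474251, plus strand: tggtacgctccAAGATGGCggcccccatgg
Mrps7, chr10:101342637-101342666, plus strand: tgatagcggccAAGATGGCtgcccccgcac
Mrpl42, chr7:32028485-32028514, minus strand: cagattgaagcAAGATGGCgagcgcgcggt
Mrpl49, chr1:212779293-212779322, minus strand: ttggaggagcaAAGATGGCagcaaatgtat
In these genes the word begins at base 29, 30, 7, 20 and 17 after the start, in the order printed. The word holds the letters ATG, and whether that ATG is the start codon was not examined.

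Libraries held 6821590 to 15475018 counts on genes, which is 47.0% to 49.9% of their alignments. Levels are given as CPM, the count of a gene scaled to the size of its library with TMM factors, and 3 counts, taken as the floor, correspond to 0.194 to 0.444 CPM. All 10 Schwann cell markers examined passed the filter, and 5 of them fell after NRG1 by edgeR's quasi-likelihood test, among them Pmp22, Cdh19, Egr2 and S100b. Replicate 1 stood apart in both groups. The summed level of the Schwann cell markers was 7244 CPM in mock 1 and 5246 CPM in NRG1 1, against 13550 to 18750 CPM in the other 4 libraries. The summed level of 7 fibroblast markers was 53420 and 57720 CPM in mock 1 and NRG1 1, and 13690 to 22330 CPM in the others, where Dcn, Lum and Thy1 were at 0. The 5 pericyte and smooth muscle markers summed to 3120 and 3173 CPM in replicate 1 and 230.8 to 414.2 CPM elsewhere. The 7 macrophage markers summed to 3.23 to 10.29 CPM, with Ptprc and Adgre1 at 0, and the 5 endothelial markers to 6.53 to 15.24 CPM, with Pecam1 and Cdh5 at 0. Both libraries of replicate 1 thus held more fibroblast and pericyte marker RNA than the others. Within pair 2 these sums were lower in NRG1, 22330 CPM in mock and 13690 CPM in NRG1 for fibroblast markers and 414.2 and 233.1 CPM for pericyte markers, and within pair 3 they were 14060 and 13930 CPM and 321.1 and 230.8 CPM. In pair 2 the fibroblast sum was almost all Col1a1, at 21490 CPM in mock and 13410 CPM in NRG1. Col3a1 had log2 ratios of 0.05, -1.59 and -1.38 in pairs 1, 2 and 3, and Col1a1 of 0.18, -0.68 and 0.01. Pdgfra went the other way in pairs 2 and 3, at 1.65 and 0.99, from 1 and 9 counts in mock 2 and mock 3. Without replicate 1 the test called 1 fibroblast and 1 pericyte marker as fallen. The part of these cells in the results was not tested, and results are also given without replicate 1.

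Most mitochondrial ribosomal protein genes had slightly more RNA after NRG1, and a minority passed the test. Of the 66 tested genes, 9 (13.6%) rose and 0 fell at an adjusted p of at most 0.01, while 6.31% of all tested genes rose and 5.51% fell. The 9 genes were Mrpl12, Mrpl38, Mrps18b, Mrps27, Mrps34, Mrps7, Mrpl42, Mrps2 and Mrpl49, and their log2 fold changes lay between 0.54 and 0.94. No gene passed the thresholds that the study applied, which add an absolute log2 fold change over 1, and which 1.56% of all tested genes passed upwards and 1.91% downwards. No gene was lower at an unadjusted p under 0.05 either, against 18.7% of all tested genes, and 25 were higher, against 17.0%. With replicate 2 left out, 12 of 67 members were higher and 3 lower at that level. In that fit 3492 of 10339 genes passed it in either direction. DESeq2 with the same pairing called 6 of the 9 and no fall, and 6.06% of all genes as risen. Without replicate 1, 7 genes rose, against 5.94% of all genes. The count rested most on replicate 2. Without it 4 of 67 tested members rose, against 5.07% of all genes in that fit. The family share was then close to that of all genes. With the pairing left out of the model 0 genes rose, and the same fit called 0 of all 9740 genes.

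Over the family the median log2 fold change was 0.23, with quartiles of 0.09 and 0.37, against -0.03 over all tested genes. It was 0.29 without replicate 1. In 56 of the 66 genes (84.8%) the fitted change was positive, against 47.2% of all tested genes. Values ran from -0.28 for Mrps35 to 0.94 for Mrpl12. Of the 57 genes that did not pass, each had a 95% interval whose upper limit lay below a log2 fold change of 1. The highest of these limits was 0.81, for Mrps10, and the lowest lower limit was -0.62, for Mrps35. These are changes per unit of RNA in a whole culture, in which fewer cells of a type and less RNA per cell cannot be told apart.

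The size of the change differed between the 3 preparations. The summed level of the 66 genes was 2058.2, 2053.1 and 2340.8 CPM in mock 1, 2 and 3, and 2272.9, 3042.5 and 2510.6 CPM in NRG1 1, 2 and 3. NRG1 was higher in each pair, and NRG1 1 lay below mock 3, so the groups overlapped. As a share of all gene counts the family made up 0.2003%, 0.2034% and 0.2386% in the mock libraries and 0.22%, 0.3062% and 0.2514% in the NRG1 libraries. The median log2 ratio within a pair was 0.16 in pair 1, 0.51 in pair 2 and 0.04 in pair 3, where the median over all tested genes was -0.03, -0.03 and -0.01. The largest of the 3 ratios was that of pair 2 in 60 genes (90.9%), against 39.2% of all tested genes. Without replicate 2 the family median was 0.11. NRG1 2 held more counts than mock 2, 8846267 against 6821590, and with all libraries thinned to 6821590 counts 6 genes rose. What else distinguished preparation 2 was not tested.

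**Figure D1:**
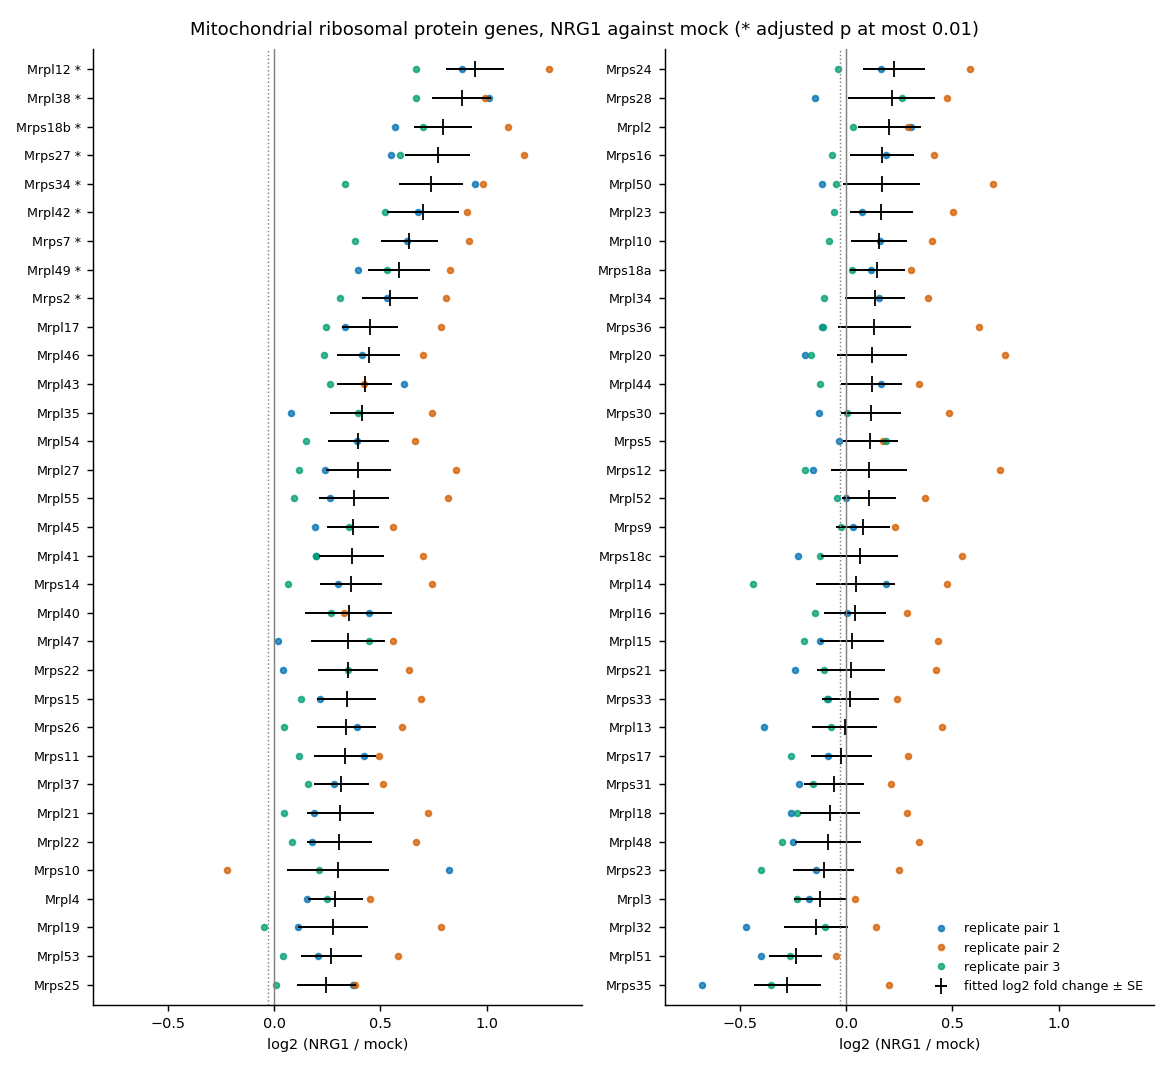
Log2 ratio of NRG1 to mock for each of the 66 tested genes, ordered by fitted change, with black lines for the fitted log2 fold change ± SE, coloured points for the 3 replicate pairs and asterisks for an adjusted p of at most 0.01. The orange points of pair 2 lie farthest to the right in 60 genes, and the fitted changes run from 0.94 for Mrpl12 down to -0.28 for Mrps35. The dotted line marks the median over all tested genes, -0.03.

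In part of the family the 3 pairs shared their direction. NRG1 was higher in all 3 pairs for 33 of the 66 genes, against 25.9% of all tested genes. It was lower in all 3 pairs for Mrpl51 alone, against 30.0%. In 16 genes (24.2%) every NRG1 sample lay above every mock sample, against 10.2% of all tested genes, and in 0 genes the reverse held, against 9.94%. The 16 genes were 7 of those that rose (all but Mrps7 and Mrps2) together with Mrpl17, Mrpl43, Mrpl54, Mrpl35, Mrpl37, Mrps26, Mrps22, Mrpl22 and Mrpl2. At an adjusted p of at most 0.05 the count became 13 genes (19.7%), against 11.5% of all tested genes.

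In the large subunit, 4 of 40 tested genes (10.0%) rose, against 6.31% of all tested genes, and the median log2 fold change was 0.27. Mrpl12 encodes the homologue of the bacterial L7/L12 protein, which forms the mobile stalk that recruits translation factors, and it has also been described as a partner of the mitochondrial RNA polymerase. Its level was 41.0, 49.0 and 66.1 CPM in mock 1, 2 and 3, and 75.9, 120.3 and 105.2 CPM in NRG1 1, 2 and 3. The groups did not overlap, and it was the gene with the largest change of the family (log2 fold change 0.94 ± 0.14 SE, 3 pairs, adjusted p = 0.00026). Mrpl38, a protein of the central protuberance that has no bacterial counterpart, was at 15.4, 26.5 and 31.0 CPM in mock and at 31.2, 52.9 and 49.4 CPM in NRG1. Its groups did not overlap, although mock 3 lay just under NRG1 1, and within pairs the log2 ratio was 1.01, 0.99 and 0.67 (log2 fold change 0.88 ± 0.14 SE, adjusted p = 0.000469).

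Mrpl42 and Mrpl49, both additions of the mitochondrial lineage, changed less. Mrpl42 was at 8.69, 10.8 and 13.1 CPM in mock and at 14.0, 20.5 and 18.9 CPM in NRG1. Every NRG1 sample was above every mock sample (log2 fold change 0.70 ± 0.17 SE, adjusted p = 0.00866), but the call was lost when any 1 of the 3 replicates was left out. Mrpl49 was nearly constant in mock, at 20.8, 20.1 and 21.0 CPM, and was at 27.5, 35.9 and 30.5 CPM in NRG1. Its log2 fold change was 0.59 ± 0.14 SE with an adjusted p of 0.00939, the closest of the 9 to the threshold, and the call was lost without replicate 2 and without replicate 3. In the RefSeq annotation Mrpl49 overlaps Syvn1, and the strand setting of the counting is not given in the sources used here, so its count is uncertain to that extent.

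In the small subunit, 5 of 25 genes (20%) rose, against 6.31% of all tested genes, and the median log2 fold change was 0.22. Mrps18b belongs to a set of paralogues related to bacterial S18, and takes a place in the mitochondrial subunit that is not that of the bacterial protein. It was at 31.9, 36.8 and 47.3 CPM in mock and at 47.5, 79.2 and 76.9 CPM in NRG1, so that the groups touched but did not overlap (log2 fold change 0.79 ± 0.14 SE, adjusted p = 0.000915). The related Mrps18a (log2 fold change 0.15, adjusted p = 0.45) and Mrps18c (0.06, adjusted p = 0.831) did not pass. Mrps27, a pentatricopeptide repeat protein, was at 21.2, 20.6 and 25.7 CPM in mock and at 31.2, 46.6 and 38.8 CPM in NRG1. All NRG1 samples were higher than all mock samples, most of all NRG1 2 (log2 fold change 0.77 ± 0.15 SE, adjusted p = 0.00248).

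Mrps34, a mitochondria-specific protein needed for the stability of the small ribosomal RNA, was at 20.3, 27.2 and 36.3 CPM in mock and at 39.3, 54.1 and 45.8 CPM in NRG1. The groups did not overlap, and the log2 ratio of pair 3, 0.33, was the smallest of its 3 (log2 fold change 0.74 ± 0.15 SE, adjusted p = 0.00334). Mrps7, the counterpart of the protein that organises the head of the small subunit in bacteria, was at 31.8, 41.7 and 54.7 CPM in mock and at 49.2, 79.0 and 71.3 CPM in NRG1. Here NRG1 1 lay below mock 3, and the difference appears within pairs (log2 fold change 0.64 ± 0.13 SE, adjusted p = 0.00394). Mrps2, likewise conserved from bacteria, was at 36.6, 43.5 and 53.7 CPM in mock and at 52.9, 76.3 and 66.6 CPM in NRG1. It too overlapped between groups through NRG1 1 and mock 3 (log2 fold change 0.54 ± 0.13 SE, adjusted p = 0.00883), and its call was lost without replicate 1 and without replicate 2. Mrps2 overlaps Pierce1 in the RefSeq annotation, so that its count carries the same uncertainty as that of Mrpl49. Mrps34 and Mrps7 lost theirs without replicate 2, with adjusted p-values of 0.0132 and 0.0128. Mrpl12, Mrpl38, Mrps18b and Mrps27 passed whichever replicate was left out.

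**Figure D2:**
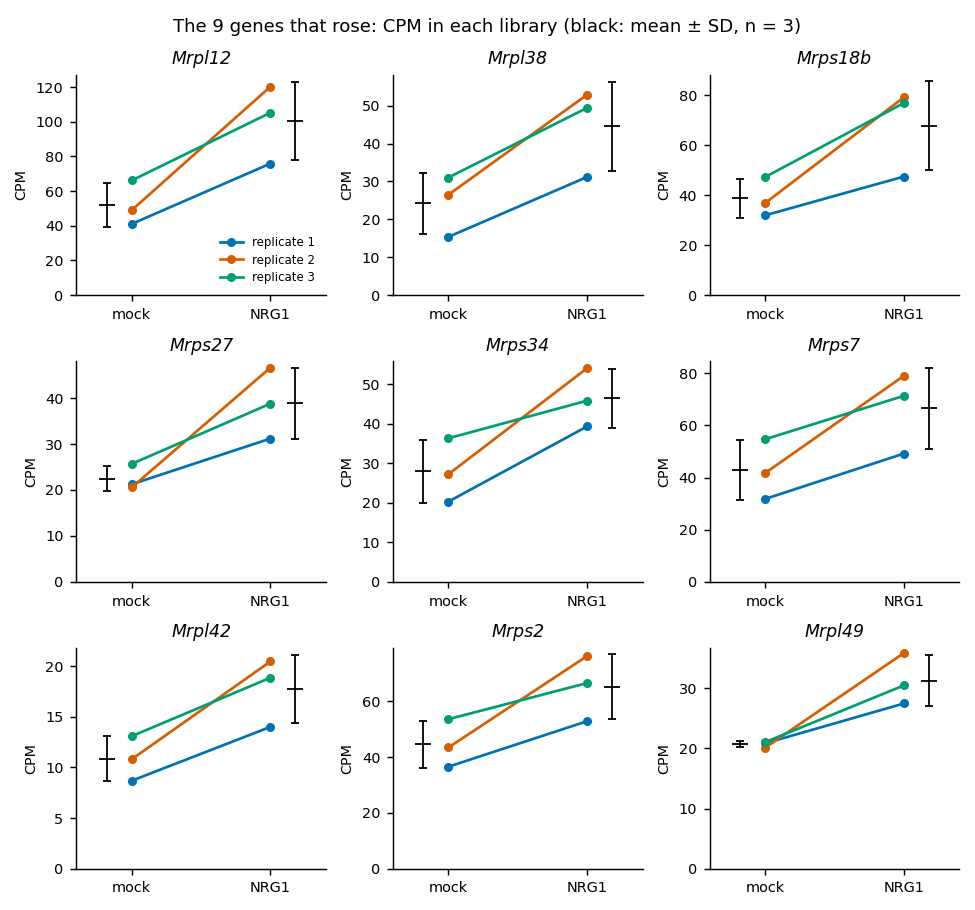
CPM of the 9 genes that rose in the mock and NRG1 library of each replicate (coloured lines join the libraries of 1 preparation), with the mean ± SD of each group (n = 3) in black and axes that start at 0. Every line goes up, mock 1 or mock 2 is the lowest library in each gene, and NRG1 2 is the highest in each, for example 120.3 CPM for Mrpl12.

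The difference between large and small subunit and the differences between the following classes were not tested. By origin, 6 of 28 mitochondria-only proteins (21.4%) rose, against 6.31% of all tested genes, with a median log2 fold change of 0.33. Among proteins shared with bacteria but not with cytosolic ribosomes 1 of 14 rose (7.14%, Mrpl12), with a median of 0.25. Among those shared by all ribosomes 2 of 23 rose (8.7%, Mrps7 and Mrps2), with a median of 0.17. The shares of these last classes were near that of all tested genes. Without replicate 2 the counts by origin were 3, 1 and 0, and 2 genes rose in each subunit, against 5.07% of all genes. DESeq2 called 2 genes of the large and 4 of the small subunit, and 4, 1 and 1 by origin.

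Just outside the threshold lay Mrpl17, Mrpl43, Mrpl45 and Mrpl46. Mrpl17, related to the bacterial protein next to the exit of the peptide tunnel, was at 117.9, 110.2 and 124.2 CPM in mock and at 148.5, 189.8 and 147.3 CPM in NRG1, without overlap (log2 fold change 0.45, adjusted p = 0.0222). It passed at 0.01 in 1 of the alternatives, that without a filter on low counts. Mrpl43 (0.43, adjusted p = 0.0265), Mrpl45, which lies at the tunnel exit and binds the inner membrane (0.37, adjusted p = 0.0423), and Mrpl46, of the central protuberance (0.44, adjusted p = 0.0423), had log2 fold changes of like size. Mrpl43 also overlaps another annotated gene, Twnk.

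The lowest log2 fold changes of the family were those of Mrps35, Mrpl51, Mrpl32, Mrpl3, Mrps23 and Mrpl48, and none of them passed the test. Mrps35 was at 41.7, 34.5 and 43.6 CPM in mock and 26, 39.7 and 34.1 CPM in NRG1. It was lower in NRG1 in pairs 1 and 3 and higher in pair 2 (log2 fold change -0.28 ± 0.16 SE, adjusted p = 0.23). Mrpl51 was at 60.1, 62.4 and 58.7 CPM in mock and 45.5, 60.4 and 48.9 CPM in NRG1. NRG1 2 lay within the mock range and the other NRG1 samples under it (log2 fold change -0.24 ± 0.13 SE, adjusted p = 0.19). The log2 fold changes of Mrpl32, which is processed by a mitochondrial protease before assembly, Mrpl3, Mrps23 and Mrpl48 were -0.14, -0.12, -0.10 and -0.08.

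At the upper end of mean CPM stood Mrpl17, Mrpl12, Mrpl20 and Mrpl45, and at the lower end of those tested Mrps10, Mrpl40, Mrps28 and Mrpl47. CPM is not corrected for length, so these positions do not rank genes by transcript number. Mrpl20 was at 63.6, 55.2 and 72.5 CPM in mock and 55.6, 92.7 and 64.7 CPM in NRG1. It was higher in NRG1 in pair 2 only (log2 fold change 0.12, adjusted p = 0.624). Mrps10 was at 6.01, 5.92 and 5.59 CPM in mock and 10.8, 5.06 and 6.52 CPM in NRG1, and was unlike most of the family in that NRG1 2 was the lowest of all its libraries (log2 fold change 0.30 ± 0.24 SE, adjusted p = 0.396). Mrpl40 (0.35, adjusted p = 0.238), Mrps28 (0.21, adjusted p = 0.487) and Mrpl47 (0.35, adjusted p = 0.167) did not pass, and their SE of 0.17 to 0.20 was above the family median of 0.15.

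Of the genes that failed the filter, Mrpl1 had 9, 3 and 5 counts in mock 1, 2 and 3 and 14, 11 and 8 counts in NRG1 1, 2 and 3. Each count was higher in NRG1 than in the mock library of its pair, but all were too few for a test. Mrpl30 and Mrpl36 had 0 counts in all 6 libraries, which allows up to 0.194 CPM in the deepest and 0.444 CPM in the shallowest library, counting error only. Whether they were silent or uncounted in this annotation cannot be told apart.

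The family rule missed 10 genes of this ribosome that the files list under another name or spelling. Of these 0 passed at 0.01 in either direction by edgeR or by DESeq2. At an unadjusted p under 0.05, 2 were higher and 0 lower, against 17.0% and 18.7% of all tested genes. Of the 3 listed in lower case, mrpl24 had a log2 fold change of 0.29 (adjusted p = 0.159), mrpl11 of 0.02 and mrpl9 of -0.04. Ptcd3, a pentatricopeptide repeat protein of the small subunit, was at 0.37 (adjusted p = 0.0608) and Chchd1 at 0.36 (adjusted p = 0.132), and the median of the 7 with other names was 0.17.

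The gene lists next to the ribosome in mitochondrial gene expression gave few calls. Among 22 tested factors of mitochondrial ribosome assembly and ribosomal RNA modification 2 (9.09%) rose and 0 fell, against 6.31% and 5.51% of all tested genes. Those that rose were Rnmtl1, which methylates the large ribosomal RNA (log2 fold change 0.84, adjusted p = 0.00723), and Wbscr16, also called Rcc1l (0.57, adjusted p = 0.00839). Both calls were lost with DESeq2 and without replicate 1 or 2. Among 11 mitochondrial translation factors edgeR and DESeq2 called 0, with 3 higher and 0 lower at an unadjusted p under 0.05, and the elongation factor Tufm came closest (0.45, adjusted p = 0.0145). Among 16 mitochondrial aminoacyl-tRNA synthetases both tools likewise called 0, with 2 higher and 1 lower at an unadjusted p under 0.05. At that level 17.0% of all tested genes were higher and 18.7% lower. Yars2, which charges tyrosine tRNA, was at 0.57 (adjusted p = 0.0215). Against 6.31% of all tested genes, 2 (10.5%) of 19 genes for the transcription, replication and RNA processing of mitochondrial DNA rose, and 0 fell. These were Elac2, which trims the ends of tRNA precursors (0.73, adjusted p = 0.00116), and the DNA polymerase gene Polg (0.58, adjusted p = 0.00363), and without replicate 1 the count was 1. Medians of these 4 lists were 0.05, -0.02, 0.21 and 0.14, against 0.23 for the ribosomal proteins.

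The respiratory chain and the cytosolic ribosome gave different values. Nuclear genes of oxidative phosphorylation, whose products assemble with those the mitochondrial ribosome makes, had a median of 0.12. Of 70 tested, 4 (5.71%) rose and 0 fell, against 6.31% and 5.51% of all tested genes. Those that rose were Uqcrc1, Atp5d, Cyc1 and Cox5b, and their share was not above that of all tested genes. Without replicate 1 0 of these 70 rose and without replicate 2 1 did. Cytosolic ribosomal protein genes had a median of 0.41, with 9 of 68 (13.2%) risen, 0 fallen and all 68 above 0, and 4 risen without replicate 2. Rpl31, Rpl32, Rpl28 and Rpl18 had the smallest p-values among these. Factors of nucleolar ribosome assembly stood highest, with 29 of 40 (72.5%) risen, 0 fallen and a median of 0.70. The smallest p-values were those of Fbl, which methylates ribosomal RNA (log2 fold change 1.56), Wdr46, Bop1 and Nop56. The paper had already reported these genes, from the same samples, in its up-regulated category of rRNA metabolic processes. All genes of that category are in the nucleolar list, so its share is not an independent result. The ribosomal proteins of the mitochondrion thus lay below both cytosolic lists in median and above the respiratory chain, an order that held within each of the 3 pairs and was not tested.

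**Figure D3:**
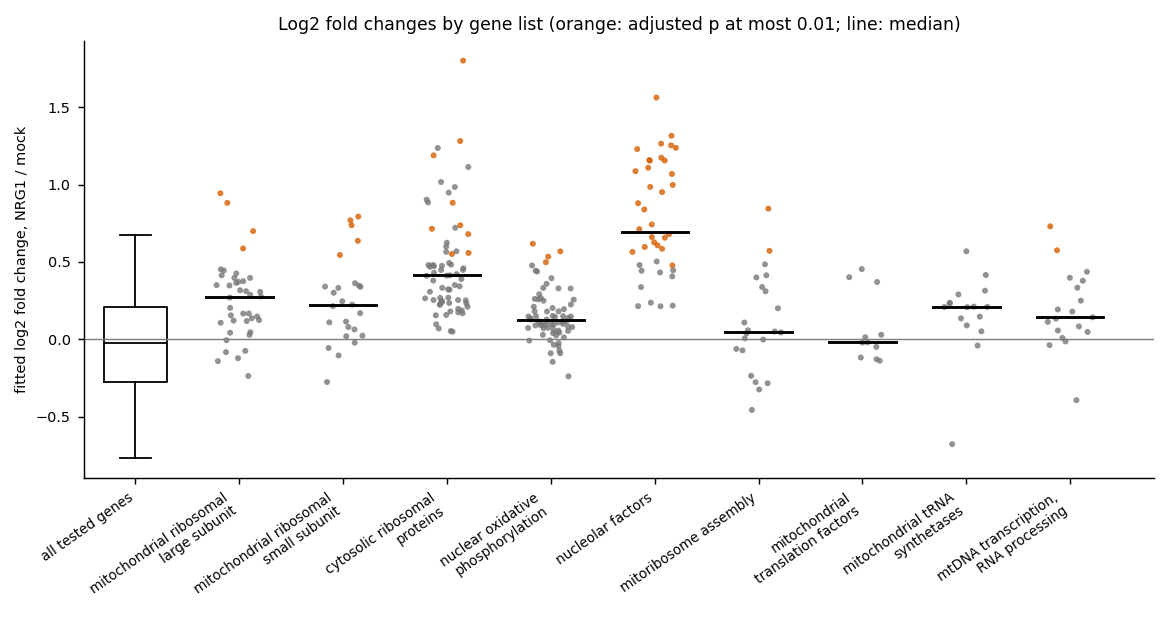
Fitted log2 fold change of every tested gene by list, with genes at an adjusted p of at most 0.01 in orange and a black line at each median. The box on the left gives median and quartiles of all tested genes and its whiskers span the 5th to the 95th percentile. Medians are 0.27 and 0.22 for the large and small mitochondrial subunit, 0.41 for cytosolic ribosomal proteins and 0.70 for nucleolar factors.

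The prominence of pair 2 was shared by the cytosolic ribosomal protein genes, of which 62 of 68 had their largest ratio there, and by 64 of 70 respiratory chain genes. Within pairs 1, 2 and 3 the median log2 ratio was 0.28, 0.68 and 0.25 for cytosolic ribosomal proteins, 0.08, 0.42 and -0.08 for the respiratory chain, and 0.75, 0.93 and 0.57 for nucleolar factors. The mitochondrial ribosomal protein genes, at 0.16, 0.51 and 0.04, had almost no median change in pair 3.

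**Figure D4:**
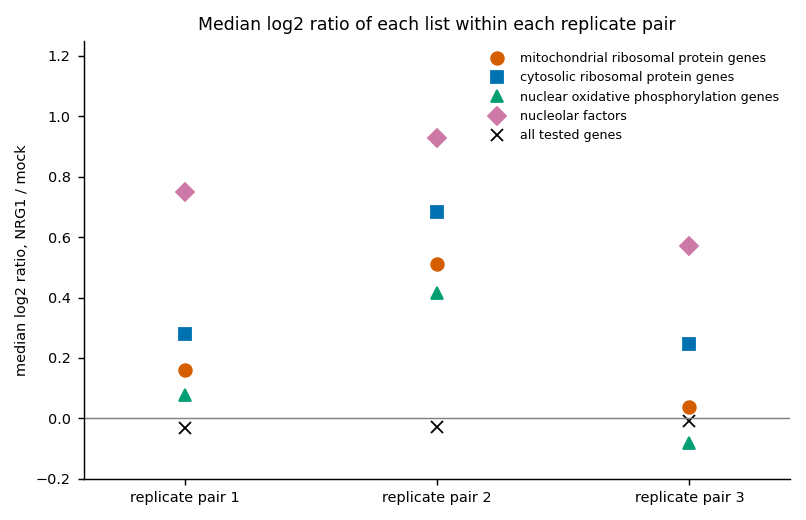
Median log2 ratio of NRG1 to mock in each replicate pair for 4 gene lists and for all tested genes, computed from log2 CPM. All 4 lists are highest in pair 2, where the mitochondrial ribosomal protein genes reach 0.51, while all tested genes stay between -0.03 and -0.01.

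Of 12 tested regulators of mitochondrial biogenesis, 3 (25%) rose and 0 fell, against 6.31% and 5.51% of all tested genes. The count was 2 without replicate 1 and 2 without replicate 2. Pprc1, a coactivator of the PGC-1 family, was at 43.4, 46.2 and 36.6 CPM in mock and 80.5, 76.0 and 78.5 CPM in NRG1 (log2 fold change 0.91 ± 0.13 SE, adjusted p = 0.000203). The groups did not overlap, and the NRG1 libraries lay close together (SD 2.28 CPM). Whether Pprc1 acts on the family was not tested. The growth regulators Myc (0.72, adjusted p = 0.00167) and Mycn (0.98, adjusted p = 0.00234) rose as well. Yy1 (0.39, adjusted p = 0.0311), Nrf1 (0.30), Gabpa, an ETS factor (-0.10), and Ppargc1a (-0.82, adjusted p = 0.0831) did not pass.

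Promoter windows of 300 bases, 250 before and 50 after the transcription start, were found in RefSeq for 55 of the 69 members, 52 of them tested and 7 of them among the 9 that rose. Mrpl38 and Mrps34 had none. Of the words searched on both strands, AAGATGGC (YY1) occurred in 13 of the 52 tested members (25%), against 6.19% of the 7479 tested genes with a window and 3.44% of all 27457 windows. It was in 5 of the 7 windows of members that rose (71.4%) and in 8 of 45 of those not called (17.8%). Of all tested genes that rose after NRG1, 8.72% held it. It lay after the start in 11 of the 13 members and on the strand of the gene in 12. Members that hold it and did not pass include Mrps18a, Mrps30, Mrpl50 and Mrpl32. The word was 1 of 5 searched, 7 windows are few, and no test was made.

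Of the other words, CCGGAAG (ETS factors) was in 30.8% of the tested members against 19.3% of tested genes, and GCATGCGC (NRF1) in 9.62% against 5.63%. CACGTG, the E-box read by Myc proteins, was in 7.69% against 9.67%, and GGGCGG (SP and KLF factors) in 51.9% against 65.1%. The GGGCGG word was in 6 of the 7 windows of members that rose (85.7%) and 21 of 45 not called (46.7%). Of all tested genes that rose, 71.1% held GGGCGG. The ETS, NRF1 and E-box words were in 2, 1 and 1 of the 7 windows. Matches can share letters where the end of the ETS word runs into the start of the YY1 word, or where NRF1 matches lie on opposite strands. A match is a run of letters, not a measured binding site.

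The promoter of Mrps18b is shown because it holds all 5 words, and that of Mrpl12, the member with the largest change, because it holds only 1 of them. Both are given as the 250 bases that end just before the start, on the plus strand of GRCr8, with the NRF1, ETS, YY1 and E-box words in capitals.
Mrps18b, chr20:2842756-2843005: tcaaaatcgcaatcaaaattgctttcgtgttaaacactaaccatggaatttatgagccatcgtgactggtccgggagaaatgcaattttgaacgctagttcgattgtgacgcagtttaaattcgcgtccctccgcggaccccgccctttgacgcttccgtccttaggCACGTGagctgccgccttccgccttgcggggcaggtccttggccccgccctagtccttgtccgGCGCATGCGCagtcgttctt
Mrpl12, chr10:106256496-106256745: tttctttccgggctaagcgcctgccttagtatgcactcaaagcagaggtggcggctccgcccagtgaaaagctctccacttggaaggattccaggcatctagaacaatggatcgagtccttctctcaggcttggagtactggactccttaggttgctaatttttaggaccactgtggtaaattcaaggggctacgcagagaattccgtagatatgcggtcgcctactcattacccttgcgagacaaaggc
In Mrps18b the capitals mark an E-box that begins 83 bases before the start and a pair of overlapping NRF1 matches that begin 20 and 18 bases before it, an ETS match runs across the start, and its YY1 word follows after it. In Mrpl12 none of these 4 words was found, and the GGGCGG word, left in lower case, begins 194 bases before the start.

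**Figure D5:**
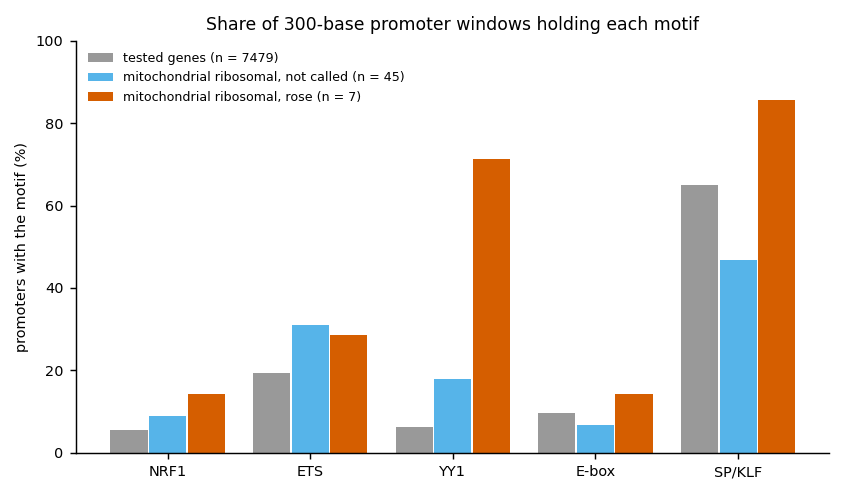
Share of 300-base promoter windows (%) that hold each of 5 words, for all tested genes (n = 7479), mitochondrial ribosomal protein genes not called (n = 45) and those that rose (n = 7). The YY1 word is in 71.4% of the 7 windows, 17.8% of the 45 and 6.19% of all; the bars of the 7 rest on 1 to 6 windows each.

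Several members share a start region with a gene on the other strand. Of the 55 members with a RefSeq window, 18 had a head-to-head neighbour whose start lay within 1000 bases, and for 14 that neighbour was tested. Among the members that rose 4 had a tested neighbour, and none of these neighbours passed. Mrps18b lies beside Ppp1r10 (log2 fold change 0.10, adjusted p = 0.581), Mrps27 beside Ptcd2 (0.41, adjusted p = 0.142), Mrps7 beside Gga3 (0.28, adjusted p = 0.126) and Mrpl49 beside Fau, which encodes a cytosolic ribosomal protein (0.33, adjusted p = 0.083). Mrpl46 and Mrps11 are each other's neighbours, at 0.44 and 0.33. Of the 14 tested neighbours 1 rose and 2 fell, against 6.31% and 5.51% of all tested genes. The members beside these neighbours did not pass, like 57 of the 66 tested members. Whether members and neighbours change together was not tested. Tcp1, a chaperonin subunit, rose by 0.79 on the log2 scale beside Mrpl18 at -0.07, while Pnpla7 fell by 0.91 beside Mrpl41 at 0.36, and Klc4 fell by 0.60 beside Mrpl2 at 0.20.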

How the data were processed

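Poly(A) RNA of 6 samples (3 mock, 3 NRG1) was sequenced on an Illumina NextSeq 500 from TruSeq libraries. The authors mapped reads to rat rn5 with TopHat2 2.0.10, used HTSeq with RefSeq gene models, and deposited the raw counts of 17327 genes per sample. Alignments to more than 1 place (24.5% to 29.9%) were not counted, so members with near-identical copies may be undercounted. The 5 HTSeq summary lines per file were kept out of library sizes and tests. Between 0.12% and 0.17% of alignments were ambiguous between genes.

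Counts were analysed with edgeR 4.0.16 in R 4.3.3: filterByExpr with a minimum count of 10 (9740 genes kept), TMM scaling, and a quasi-likelihood fit with replicate number as a block and condition. P-values were adjusted over the 9740 genes by the Benjamini-Hochberg method, and genes at an adjusted p of at most 0.01 were said to have risen or fallen. SE was taken from the log2 fold change and the F statistic. Pair ratios used log2 CPM with a prior count of 2. Replicate numbers mark independent preparations. Deviations from group means correlated at 0.91, 0.67 and 0.81 between samples of the same number, and at -0.80 to 0.51 otherwise.

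Alternatives were no replicate block, DESeq2 1.42.0 with and without the block (fold changes unshrunken), RLE, upper-quartile and total-count scaling, other filters, robust empirical Bayes, thinning to 6821590 counts, leaving out each replicate and other thresholds. DESeq2 without the block was added after the data were seen. Adjusted p-values that DESeq2 gave as missing stayed missing. The code was checked on simulated counts. There edgeR with the block recovered 27.5% of changes of log2 size 0.5 and 69.8% of those of size 0.75. A gene that was not called is therefore not shown to be unchanged.

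Named members are the 12 with the smallest p-values, the 6 lowest fold changes, the 4 highest and 4 lowest mean CPM, those not tested and those whose call changes without 1 replicate. Other lists are named by up to 4 called genes of smallest p. Genes named beyond this (lower-case and differently named proteins, Mrps18 paralogues, regulators not called, promoter neighbours) were chosen after their values were seen. The members and lists were chosen with earlier results of these data known. Promoters came from RefSeq (GRCr8), matched by symbol, 1 by an older symbol. Neighbours and overlaps came from the same assembly, while counts rest on rn5. Overlap was found for 17 of the 69 members, 9 of them with a tested gene. Floors and intervals on counts cover counting error only. Single genes of 2 lists are not reported here.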

Additional observations from a re-analysis of the deposited data

Results flagged for a closer look

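Alignments to more than 1 place, which enter no gene count, took a larger share of the NRG1 library than of the mock library in each of the 3 pairs. The share was 26.444%, 28.85% and 29.858% in NRG1 1, 2 and 3, against 24.493%, 26.113% and 28.684% in mock 1, 2 and 3. The groups overlapped. Which genes these alignments belong to is not given in the counts, and whether members with near-identical copies are among them was not tested.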

How the results depend on the processing

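The number of members that fell was 0 under every alternative run. At an unadjusted p under 0.05, however, 3 members were lower with replicate 2 left out, where 3492 of 10339 genes passed in either direction. Upper-quartile scaling, no low-count filter and thinned counts each gave 1 lower member at that level. In these fits 3596 of 9740, 3819 of 13129 and 3349 of 9631 genes passed it in either direction. The lowest log2 fold change of Mrps35 over the alternatives was -0.50. The calls depended on the replicate block. With no replicate block 0 members rose (smallest adjusted p 0.204), as did 0 of all genes, with 0 falling. At an unadjusted p under 0.05 that fit had 10 members higher, and 1334 of all 9740 genes passed in either direction. DESeq2 with no replicate block called 0 members (smallest adjusted p 0.0292), 111 genes up and 67 down. The cause of the difference between the tools was not tested. The common coefficient of variation was 0.119 with the block and 0.374 without.

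With the block, 6 to 10 members rose under another tool, scaling, filter, variance model or thinned counts. Mrpl12, Mrpl38, Mrps18b, Mrps27, Mrps34 and Mrps7 passed in each of these, and the calls of Mrpl42, Mrpl49 and Mrps2 were lost with DESeq2, upper-quartile scaling and thinned counts. Without a low-count filter 857 genes fell. At an adjusted p of 0.05, 1124 genes rose and 1136 fell, and with the study's fold threshold 0 members and 152 and 186 genes. Leaving out each replicate gave 4 to 7 members risen, 0 fallen, a median of 0.11 to 0.34, and 408 to 590 genes up and 253 to 601 down, the lowest of the latter without replicate 3. The sign changed in 7, 12 and 6 of the 66 members without replicate 1, 2 and 3, and 0 of these had passed the test. Of the named members, over the fits without 1 replicate each Mrpl32 ranged from -0.27 to 0.0163, Mrpl48 from -0.28 to 0.0693 (0.000131 without replicate 1), Mrps23 from -0.28 to 0.0797 and Mrpl20 from -0.18 to 0.30, the negative end without replicate 2 in each. Levels near the 3-count floor, as for Mrpl1, were not resolved at this depth.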
